A study of Mus musculus with 24 samples.

Results

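DNA methylation was examined at 9 genes of the stress axis and the oxytocin system in the dentate gyrus of female C57BL/6JRj mice. The genes were the corticosteroid receptors Nr3c1 and Nr3c2, their co-chaperone Fkbp5, the peptide Crh with its receptors Crhr1 and Crhr2, the peptides Avp and Oxt, and the oxytocin receptor Oxtr. All CpGs of the deposited table that lay inside one of these genes or within 2000 bases of it were taken, which gave 476 of 762162 CpGs. A cytosine on each strand counted as a CpG of its own, so that 35 CpG dinucleotides of these genes contributed 2 each. None of the 476 was listed for more than 1 of the 9 genes. Methylation was read by reduced representation bisulfite sequencing (RRBS), giving the share of methylated copies at single cytosines in CpG-rich restriction fragments. Each library came from the micro-dissected dentate gyrus of 1 mouse, in 3 groups: 5 Young_STD mice aged 1.5 months in standard cages, 7 Aged_STD mice aged 14 months in standard cages, and 7 Aged_ENR mice aged 14 months kept in an enriched environment. The aged enriched mice entered that enclosure as young animals, where larger groups shared more space than in the standard cages, so cage size and group size differed together with the enrichment. Fewer methylated cells of a type and less methylation per cell cannot be told apart in such bulk tissue.

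Corticosterone released by the adrenal gland acts on hippocampal neurons through 2 nuclear receptors, the mineralocorticoid receptor encoded by Nr3c2 and the glucocorticoid receptor encoded by Nr3c1. Fkbp5 encodes a co-chaperone that lowers the affinity of the glucocorticoid receptor for its hormone and is itself induced by it. Release of the hormone is driven by corticotropin-releasing hormone (Crh) and vasopressin (Avp) from the hypothalamus, and both Crh and oxytocin (Oxt) also act on neurons directly, through Crhr1 and Crhr2 and through Oxtr. Methylation of a CpG island at a transcription start usually goes with a silent gene, whereas methylation inside an active gene body is common.

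Parts of 6 genes are shown to place the measured cytosines in their sequence, on build GRCm38 and 5′ to 3′ on the strand of the gene, with each measured CpG in capitals. The Nr3c2 stretch (chr8:76933084-76933280, plus strand) lies in an intron and the Crhr1 stretch (chr11:104131723-104131909, plus strand) lies upstream of the gene start. Both held clusters whose values in aged and young mice are described below. The Fkbp5 stretch (chr17:28510688-28510764, minus strand) is intronic and was of intermediate methylation. The Crh coding exon (chr3:19693977-19694181, minus strand), the stretch of Oxt across an intron and a coding exon (chr2:130576823-130576897, plus strand) and part of the region upstream of Oxtr (chr6:112490675-112490893, minus strand) stand for the CpG-dense, nearly unmethylated stretches.
Nr3c2 intron: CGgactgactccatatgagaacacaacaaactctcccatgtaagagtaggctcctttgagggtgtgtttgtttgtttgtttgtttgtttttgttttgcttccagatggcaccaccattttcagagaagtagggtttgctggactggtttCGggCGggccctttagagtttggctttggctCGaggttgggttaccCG
Crhr1 upstream: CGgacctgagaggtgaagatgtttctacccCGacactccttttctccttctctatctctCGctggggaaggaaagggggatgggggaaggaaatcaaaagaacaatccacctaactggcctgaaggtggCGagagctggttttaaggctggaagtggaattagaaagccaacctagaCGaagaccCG
Fkbp5 intron: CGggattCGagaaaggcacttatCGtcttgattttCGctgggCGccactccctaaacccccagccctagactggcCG
Crh coding exon: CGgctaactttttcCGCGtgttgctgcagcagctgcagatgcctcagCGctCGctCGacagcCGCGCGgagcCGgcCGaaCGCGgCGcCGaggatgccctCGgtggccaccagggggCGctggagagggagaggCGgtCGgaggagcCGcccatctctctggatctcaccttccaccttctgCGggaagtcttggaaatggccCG
Oxt intron and coding exon: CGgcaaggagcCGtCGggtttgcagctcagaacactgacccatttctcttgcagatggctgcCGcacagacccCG
Oxtr upstream: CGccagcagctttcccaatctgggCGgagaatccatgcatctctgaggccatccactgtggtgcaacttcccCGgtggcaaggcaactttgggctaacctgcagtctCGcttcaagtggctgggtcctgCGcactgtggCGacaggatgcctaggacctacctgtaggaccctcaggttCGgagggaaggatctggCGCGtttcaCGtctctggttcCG
The Crh exon held 22 CpG dinucleotides in 205 bases and the Nr3c2 intron 5 in 197 bases. RefSeq promoters of GRCm38.p6, running from 250 bases before to 50 bases after a start, were present for 7 of the 9 genes. Nr3c1 and Crh had no entry, so their promoters were not searched. The entries of Nr3c2 (chr8:76902080-76902379) and Fkbp5 (chr17:28486100-28486399) lay inside the gene, so the first starts of these genes were not searched either. None of these 7 promoters held a cyclic AMP response element (CRE, TGACGTCA), the EGR1 motif GCGTGGGCG on either strand, or a glucocorticoid response element (GRE) written as AGAACA and TGTTCT with 3 bases between them. Of 32851 mouse promoters of the same length, 1.79% held the CRE, 0.612% the EGR1 motif and 0.009% this strict GRE. Among the 476 measured CpGs, 0 lay inside 1 of these motifs.

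Crhr1 had the most measured CpGs with 124, followed by Fkbp5 with 97, Nr3c2 with 89, Nr3c1 with 61, Crh with 29, Oxtr with 27, Crhr2 with 26, Avp with 18 and Oxt with 5. A CpG within 1000 bases of the start of any transcript in the GENCODE M21 annotation counted as promoter and the rest of the gene as body. By this definition 340 CpGs were promoter, 124 were body and 12 lay outside both. The promoter class includes the starts of internal transcripts, so that all 61 CpGs of Nr3c1, 29397 to 33136 bases downstream of its first start, were promoter CpGs. Of the 89 CpGs of Nr3c2, 42 also lay in the gene Gm10649, and the methylation of a shared cytosine cannot be assigned to 1 of the genes. No CpG in the promoter of Avp or the body of Oxt and Nr3c1 was in the table, so these are not analysed here. Libraries measured between 240 and 446 of the 476 CpGs.

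Most CpGs of the promoter class were little methylated, with exceptions in a coding exon of Nr3c1 and an intron of Fkbp5 that are described below. Of the 476 CpGs, 171 (35.9%) were listed at 0 in all mice that measured them, compared with 22.0% of all CpGs in the table. All 3 group means were under 10% at 345 CpGs (72.5%), compared with 50.6% of all CpGs. All were over 50% at 26 CpGs (5.46%), compared with 25.7% of all CpGs. Promoter and body differed in this respect, since 290 of 340 promoter CpGs (85.3%) but 52 of 124 body CpGs (41.9%) had all group means under 10%. The promoter CpGs also stood in denser sequence, with a median of 16 CpGs within 100 bases against 6 for body CpGs.

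**Figure D1:**
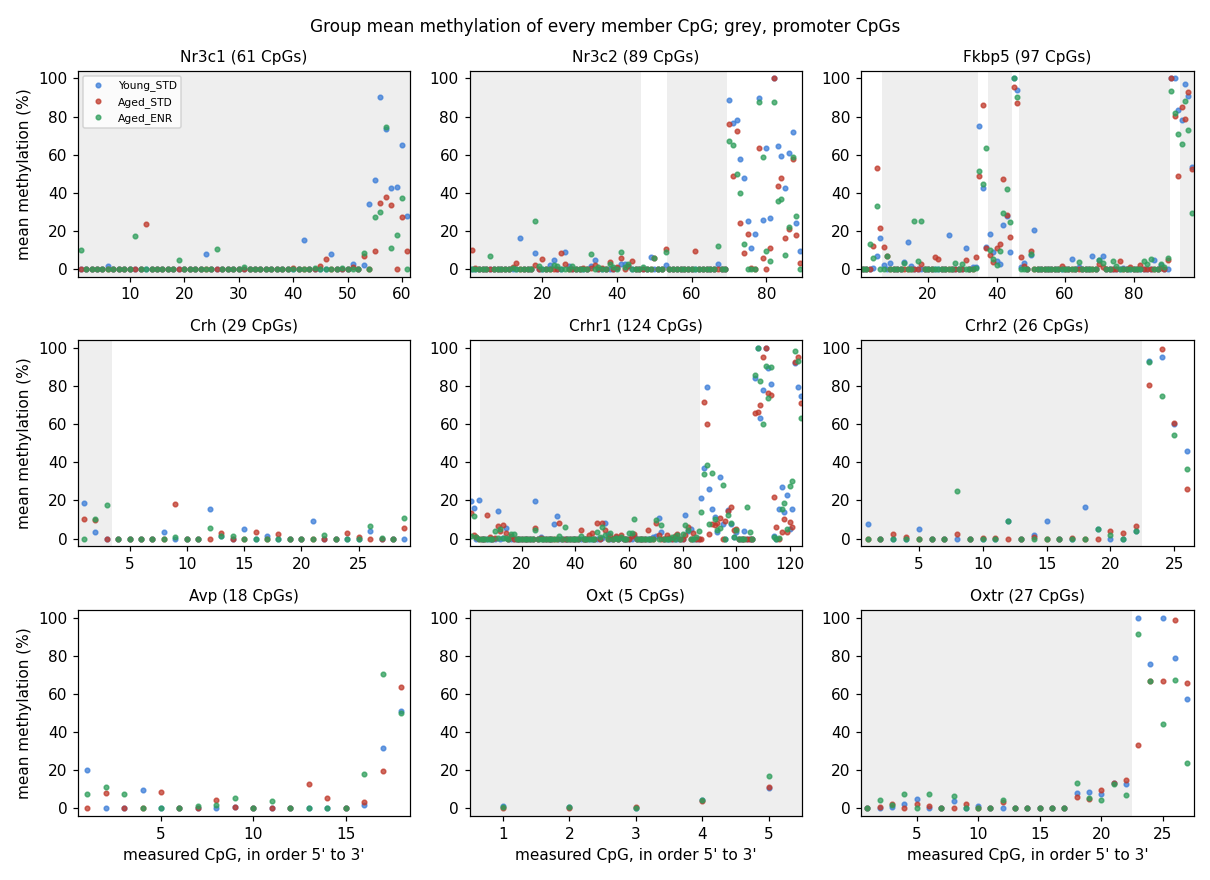
Mean methylation in percent (y axis) of each measured CpG in its 5′ to 3′ order along the gene (x axis, equally spaced) for Young_STD (blue), Aged_STD (red) and Aged_ENR (green) mice, with promoter CpGs on grey. Most promoter CpGs sit at or near 0 in all 3 groups. Methylated CpGs gather in the bodies of Nr3c2, Fkbp5, Crhr1, Crhr2 and Oxtr and at the 3′ ends of the Nr3c1 and Fkbp5 promoter classes. The CpGs downstream of Avp are intermediate.

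Among the receptors, the corticosteroid receptors had nearly unmethylated islands. The 19 CpGs around the first start of Nr3c2 averaged 1.11% ± 1.83 in Young_STD (SD, n = 5), 0.515% ± 1.36 in Aged_STD (n = 6) and 1.64% ± 2.16 in Aged_ENR mice (n = 5). The 42 CpGs of the densest Nr3c1 cluster, in untranslated exons and introns, averaged 0.361% ± 0.903 (n = 5), 0.54% ± 1.37 (n = 6) and 1.02% ± 1.4 (n = 6). The 74 CpGs around the start of Crhr1 averaged 1.23% ± 0.547 (n = 5), 1.52% ± 0.923 (n = 7) and 1.29% ± 0.659 (n = 7). The 22 CpGs at an internal start of Crhr2, which binds urocortins as well as Crh, averaged 2.21% ± 1.67 (n = 4), 1.87% ± 3.94 (n = 7) and 2.48% ± 4.06 (n = 7). The 17 CpGs upstream of Oxtr averaged 0.841% ± 1.28 (n = 5), 0.604% ± 0.675 (n = 7) and 1.78% ± 2.69 (n = 6). These starts therefore spanned a narrow range of low values in all 3 groups.

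The peptide genes were also low in most CpGs that RRBS reached. The 26 measured cytosines of the Crh coding exon printed above, at its 22 CpG dinucleotides, averaged 1.47% ± 1.19 (n = 5), 1.23% ± 1.33 (n = 7) and 0.888% ± 1.09 (n = 7) in Young_STD, Aged_STD and Aged_ENR mice. The 16 CpGs of Avp, in a coding exon and an intron, averaged 2.01% ± 2.79, 2.82% ± 2.25 and 3.6% ± 1.72 (n = 5, 7 and 7). The 5 CpGs of Oxt averaged 3.42% ± 2.08, 3.22% ± 1.94 and 4.54% ± 2.43 (n = 5, 7 and 7). Oxt was the only 1 of the 9 genes with every measured CpG covered in all 19 mice. The 3 CpGs of the Crh promoter averaged 7.30% ± 3.48 (n = 3), 8.89% ± 7.71 (n = 3) and 9.33% ± 13.3 (n = 6), with single mice from 0.0% to 33.3%. The 2 CpGs downstream of Avp stood apart from its exon, with CpG means of 41.1% in Young_STD, 41.7% in Aged_STD and 60.2% in Aged_ENR mice.

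Methylated CpGs lay in the bodies of Fkbp5, Oxtr, Crhr1, Nr3c2 and Crhr2 and in the coding exon of Nr3c1 described below. The body CpGs of Fkbp5 averaged 77.1% ± 9.63 (n = 4) in Young_STD mice against 6.29% ± 1.16 (n = 5) in its promoter class. The body of Oxtr averaged 85.3% ± 23.3 (n = 3) in Young_STD mice, from 5 CpGs. The body of Crhr1 was mixed, with introns at 90.3% ± 8.28 (n = 5, 3 CpGs from 35842 bases downstream of the start) and at 6.58% ± 3.64 (n = 5, 14 CpGs from 24718 bases) in the same mice. The body of Nr3c2 averaged 38.7% ± 5.59 (n = 5), with a coding exon at 81.2% ± 10.8 (n = 3, 3 CpGs). The 4 body CpGs of Crhr2 had a mean of 73.7% in Young_STD mice but were measured in too few mice together for a value per mouse. Fkbp5 also had a methylated stretch in its promoter class, 4 intronic CpGs at 79.9% ± 3.67 in Young_STD (n = 5), 77.6% ± 20.04 in Aged_STD (n = 4) and 64.0% ± 22.6 in Aged_ENR mice (n = 6). The printed Fkbp5 intron was intermediate, at 12.5% ± 8.44 (n = 5), 20.03% ± 8.39 (n = 6) and 18.7% ± 7.74 (n = 5).

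The first comparison addressed age in standard cages, the second enrichment in aged mice, and the last set aged enriched mice against the young baseline. The comparisons share mice, since Aged_STD mice stand in the first and second and Young_STD mice in the first and last. No CpG of the 9 genes was called in any comparison by limma, with the trended variance and Benjamini-Hochberg adjustment over all CpGs of the table, where a call needed both an adjusted p below 0.05 and more than 25 points between the groups. The tested CpGs numbered 262, 269 and 258 of the 476, the others having the same value in all mice compared or too few mice, and the background was also 0.0% of 527597, 530258 and 522275 CpGs. The smallest adjusted p among the CpGs of these genes was 0.63. At an unadjusted p under 0.05, 10 CpGs of the 9 genes (3.82%) were lower and 1 (0.38%) higher in Aged_STD than in Young_STD mice, against 3.33% and 1.09% of all CpGs. With Aged_ENR against Aged_STD mice, 1 (0.37%) was lower and 3 (1.12%) were higher, against 0.798% and 1.45%. With Aged_ENR against Young_STD mice, 11 (4.26%) were lower and 0 higher, against 2.56% and 1.4%. The share of lower CpGs with age thus lay near that of the table. With a library index (the mean young level of the CpGs that a library measured) as a term, the age counts became 6 lower and 7 higher for these genes, and 11249 lower and 13650 higher in place of 17551 and 5753 for all CpGs. The counts of Aged_ENR against Aged_STD mice became 6 lower and 1 higher, against 9435 and 7160 of all CpGs, and those of Aged_ENR against Young_STD mice 10 lower and 7 higher, against 12345 and 12624. The share of lower and higher CpGs thus moved with this term in all 3 comparisons, for these genes and for the table. The index was 31.5 ± 0.632 in Young_STD, 26.6 ± 6.91 in Aged_STD and 29.5 ± 3.88 in Aged_ENR libraries.

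The level of a CpG gave a further view when taken from the group outside the comparison. At the 34 CpGs of these genes over 50% in Aged_ENR mice, 22 had a lower and 9 a higher mean in Aged_STD than in Young_STD mice, with a median difference of -8.02 points. Over all 218017 such CpGs, 46.5% were lower and the median was 0.0 points. At the 35 CpGs over 50% in Aged_STD mice, 26 were lower and 7 higher in Aged_ENR than in Young_STD mice, with a median of -9.09 points against 0.0 over 210963 CpGs. For Aged_ENR against Aged_STD mice, 22 were lower and 21 higher of 44, with a median of -1.05 points, against 41.6% lower and a median of 0.0 over 229133 CpGs. Of the 54 CpGs from 10% to 50% in Aged_ENR mice, 30 were lower and 17 higher with age, with a median of -1.68 points against -4.7 over 103620 CpGs, so the median of these genes lay nearer to 0. In the other comparisons this class had 20 lower and 24 higher of 54 between the aged groups, with a median of 0.0 against 0.69 points, and 25 lower and 14 higher of 43 in Aged_ENR against Young_STD mice, with a median of -2.14 against -2.98 points. CpGs under 10% had a median difference of 0.0 points in all 3 comparisons. These CpGs share libraries and fragments, and the counts were not tested.

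Region values were compared for 14 promoters and bodies of the 9 genes. A region value was the mean of its CpGs after each was centred on the mean of its 3 group means, the same for all mice. This removed the level of unmeasured CpGs from the value. Which CpGs a mouse measured still moved it where CpGs did not differ equally between mice. Values can also fall below 0, to -2.81% for the Nr3c1 promoter class in Aged_STD replicate 2. No region was called at an adjusted p under 0.05, as for 0.0% of 31335, 31331 and 31335 regions of all genes in the 3 comparisons. At an unadjusted p under 0.05, 2 of 14 regions were lower in Aged_STD than in Young_STD mice (background 7.25%), 0 of 14 differed between Aged_ENR and Aged_STD mice in either direction (background 4.53%), and 2 of 14 were lower in Aged_ENR than in Young_STD mice (background 5.24%). In each case these were the body of Nr3c2 and the promoter class of Nr3c1, and the 2 comparisons share the same Young_STD mice. Of all bodies, 11.1% were lower with age at this threshold and 7.45% in Aged_ENR against Young_STD mice. For all promoters these shares were 4.68% and 3.78%. With the library index as a term the counts were 2, 0 and 0 of 14. Over all regions that term gave 1195 lower and 925 higher with age, in place of 2271 and 477, then 837 and 747 between the aged groups, and 1135 and 854 for Aged_ENR against Young_STD mice. With plain means of the measured CpGs the counts were 1, 0 and 0, where all regions had 2075 lower and 364 higher of 31320 with age, 382 and 754 of 31316 between the aged groups, and 1443 and 435 of 31312 for Aged_ENR against Young_STD mice. The Nr3c2 body differed by -17.8 points with age by plain means (adjusted p = 0.611).

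**Figure D2:**
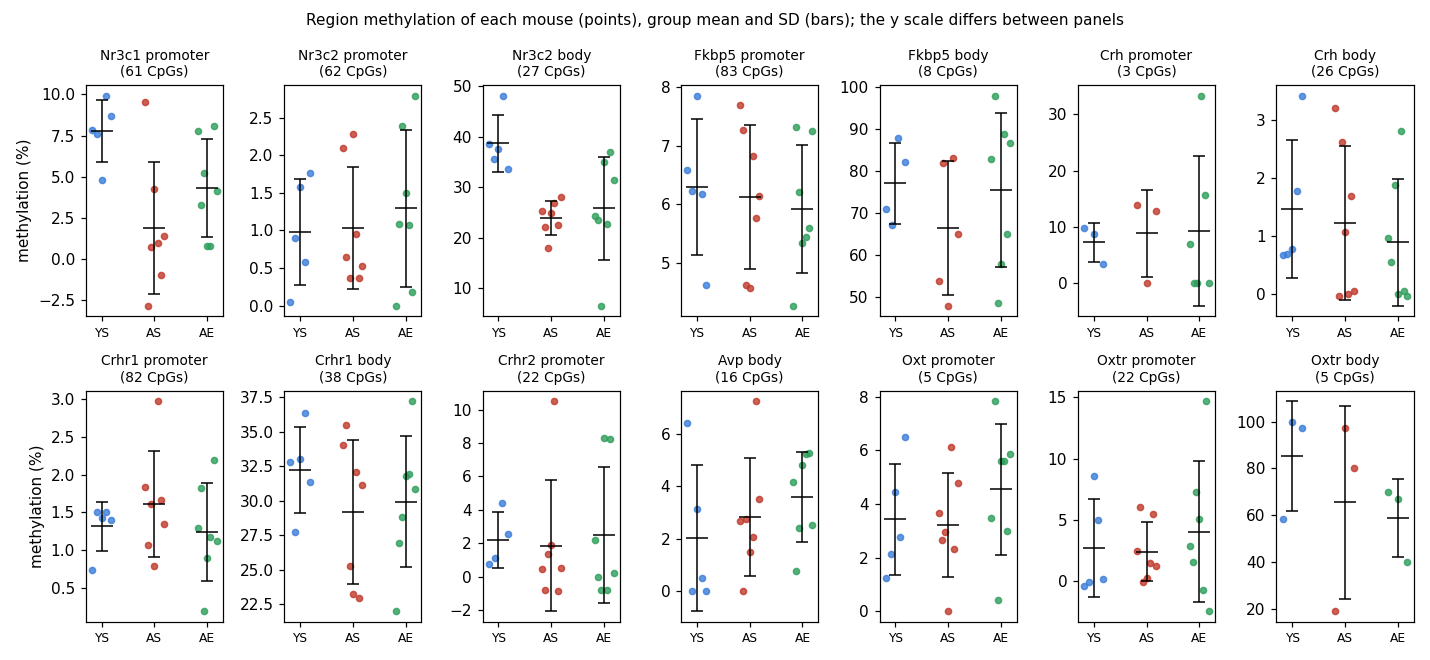
Region methylation in percent (y axis) of each mouse for the 14 regions with a value, with Young_STD (YS), Aged_STD (AS) and Aged_ENR (AE) mice along the x axis, points for mice and bars for the group mean and SD. In the body of Nr3c2 all 5 young mice lie above all 7 Aged_STD mice, and in most other panels the groups overlap widely.

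The body of Nr3c2, the mineralocorticoid receptor gene on chromosome 8 (76899442 to 77245012, plus strand), had 27 measured CpGs. Young_STD mice had values of 38.4%, 35.7%, 37.5%, 48.1% and 33.6%. Aged_STD mice ranged from 18.04% to 28.0% with a median of 24.9%. Aged_ENR mice ranged from 6.59% to 36.9% with a median of 24.2%. All 5 young values lay above all 7 Aged_STD values, while the Aged_ENR mice reached into the young range. The difference was -14.7 points ± 3.21 (SE) for Aged_STD against Young_STD mice (limma, unadjusted p = 0.000538, adjusted p = 0.289) and -12.9 ± 4.99 for Aged_ENR against Young_STD mice (unadjusted p = 0.0233, adjusted p = 0.659). Between Aged_ENR and Aged_STD mice it was 1.85 ± 4.09 points (unadjusted p = 0.658, adjusted p = 0.968). The libraries fell into 2 series by their numbers, 27 and 37, and the age difference was -14.6 points in series 27 (4 against 3 mice) and -15.1 in series 37 (3 against 2 mice). Gene bodies in general had the same direction with age, with a median of -3.03 points over 12506 bodies, of which 72.0% were lower. With the library index as a term the age difference of Nr3c2 was -13.1 points.

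Promoter and body of Nr3c2 were compared within each mouse. The promoter lay below the body in 19 of 19 mice, and promoter minus body was -37.7 points ± 5.97 in Young_STD, -22.9 ± 3.16 in Aged_STD and -24.5 ± 10.6 in Aged_ENR mice (n = 5, 7 and 7). The promoter itself was at 0.977% ± 0.706, 1.03% ± 0.817 and 1.29% ± 1.04 (n = 5, 7 and 7), and the gap was smaller by 14.8 ± 2.83 points in Aged_STD than in Young_STD mice (limma, unadjusted p = 0.000184, adjusted p = 0.176) and by 13.2 ± 4.97 points in Aged_ENR than in Young_STD mice (unadjusted p = 0.0204, adjusted p = 0.426). With the promoter this low in every group, the gap of Nr3c2 mostly restates its body value and is not a separate result. Of the 5 genes with both values, Nr3c2 alone passed an unadjusted p under 0.05, upward in both comparisons with young mice, against 11.6% and 7.77% of 8373 genes. The gap of Nr3c2 differed by 13.2 and 11.7 points with the library index as a term (unadjusted p = 0.00106 and 0.0498, adjusted p = 0.454 and 0.663), and 458 and 459 of all genes passed upward in place of 973 and 651. Between the aged groups 0 of 5 passed, against 4.93% in either direction. With the library series as a term, 1 of 5 passed upward with age, 1 between the aged groups and 2 in Aged_ENR against Young_STD mice. The counts over all genes with that term were 1017, 111 and 745 upward. No gene was called at an adjusted p under 0.05 in any comparison (0.0% of 8373). The promoter also lay below the body in all mice with both values of Crhr1 (19 of 19), Fkbp5 (16 of 16) and Oxtr (9 of 9), and in 2 of 12 mice for Crh.

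**Figure D3:**
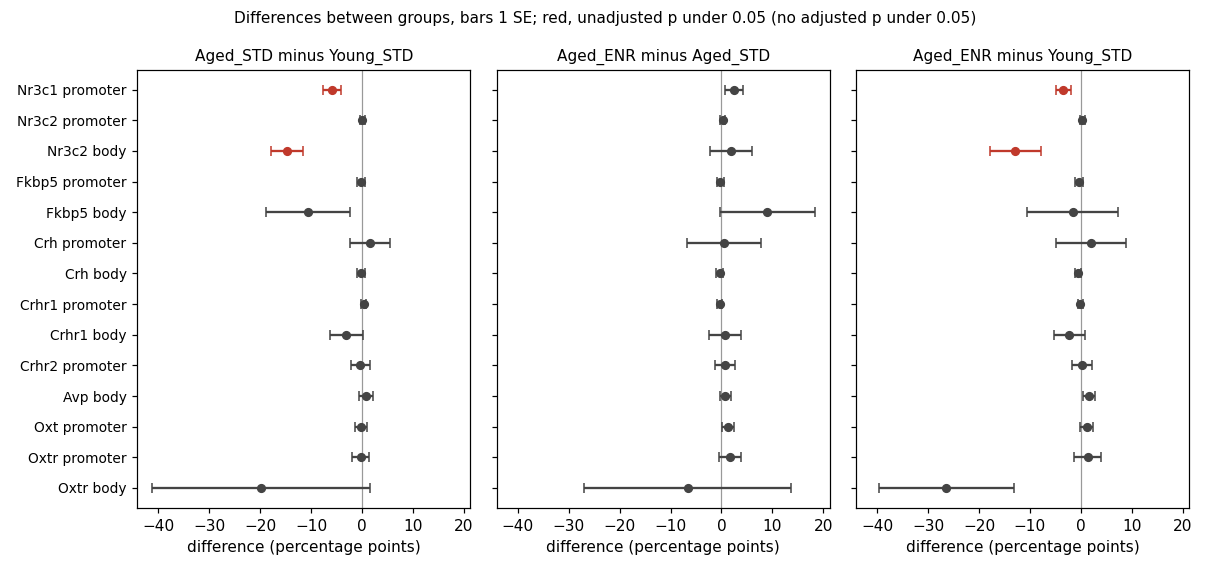
Difference in methylation in percentage points (x axis) for each region (y axis) in the 3 comparisons, with bars of 1 SE and red points for an unadjusted p under 0.05. The Nr3c2 body lies at -14.7 and -12.9 points and the Nr3c1 promoter class at -5.88 and -3.47 points against young mice, and the promoters of the other genes lie near 0.

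The promoter class of Nr3c1, the glucocorticoid receptor gene on chromosome 18 (39410545 to 39519421, minus strand), had values of 7.84%, 7.59%, 4.82%, 9.92% and 8.66% in the Young_STD mice. Aged_STD mice ranged from -2.81% to 9.54% with a median of 0.998%. Aged_ENR mice ranged from 0.769% to 8.08% with a median of 4.11%. The groups overlapped, 1 Aged_STD mouse lying within the young range and the other 6 below it. The difference was -5.88 points ± 1.79 with age (unadjusted p = 0.00605, adjusted p = 0.423), -3.47 ± 1.45 for Aged_ENR against Young_STD mice (unadjusted p = 0.0328, adjusted p = 0.689) and 2.41 ± 1.74 for Aged_ENR against Aged_STD mice (unadjusted p = 0.187, adjusted p = 0.95). With plain means of the measured CpGs the age difference was -4.57 points (unadjusted p = 0.0914, adjusted p = 0.634) and no longer passed the unadjusted threshold. Within library series 27 and 37 the age difference was -3.82 and -8.8 points. Over only the CpGs measured in all 19 mice, of which Nr3c1 had 4, it was -22.0 points. Leaving out 1 mouse at a time gave -7.15 to -5.1 points with age and 1.62 to 3.68 points between the aged groups.

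CpGs no more than 200 bases apart were also joined into clusters, a step added after the region values were seen. Cluster values were formed in the same way as region values and can also fall below 0. The 9 genes had 34 clusters with values, with 0 calls at an adjusted p below 0.05, against 0.00439% of 68372 clusters with age and 0.0% of 68397 and 68393 in the other comparisons. At an unadjusted p under 0.05, 3 of 34 were lower with age (background 5.15%), the same 3 were lower in Aged_ENR than in Young_STD mice (background 4.03%), and 0 differed between the aged groups in either direction (background 4.06%). With the library index as a term, 1 of 34 was lower with age, that of Nr3c2, while those of Nr3c1 and Crhr1 no longer passed. In Aged_ENR against Young_STD mice 3 were lower with that term, and that of Nr3c1 no longer passed. They were those of Nr3c2 and Crhr1 and a cluster of Fkbp5 that did not pass without the term. The age counts over all clusters were 2048 lower and 1919 higher with that term, in place of 3518 and 1237, and those of Aged_ENR against Young_STD mice 2068 and 1816, in place of 2759 and 1475. The 3 clusters that passed without the term are described below and lie in Nr3c1, Nr3c2 and Crhr1.

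**Figure D4:**
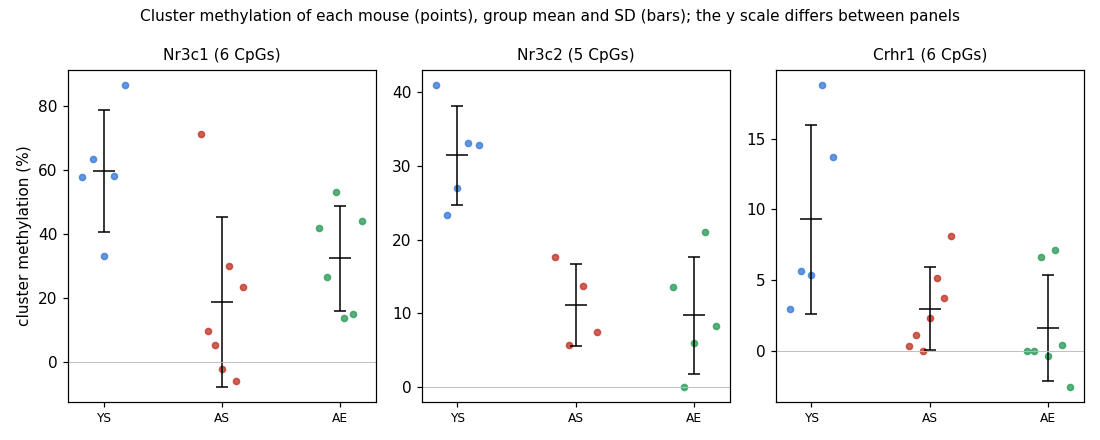
Cluster methylation in percent (y axis) of each mouse in Young_STD (YS), Aged_STD (AS) and Aged_ENR (AE) groups (x axis) for the 3 clusters with an unadjusted p under 0.05, with points for mice and bars for the mean and SD. In the Nr3c2 cluster the 5 young mice lie between 23.3% and 41.0%, above all aged mice with a value.

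The Nr3c1 cluster held 6 CpGs of a coding exon, 656 to 947 bases downstream of an internal start. Young_STD mice had 58.0%, 63.4%, 33.1%, 58.0% and 86.7%. Aged_STD mice ranged from -5.89% to 71.4% with a median of 9.63%, and Aged_ENR mice, 6 of them with a value, from 13.7% to 53.0% with a median of 34.2%. Replicate 1 of Aged_STD, at 71.4%, lay inside the young range and the other 6 below it. The difference was -41.0 points ± 13.6 with age (unadjusted p = 0.00975, adjusted p = 0.567), -27.4 ± 11.3 for Aged_ENR against Young_STD mice (unadjusted p = 0.0317, adjusted p = 0.775) and 13.6 ± 11.8 between the aged groups (unadjusted p = 0.269, adjusted p = 0.941). Without that mouse the age difference was -49.8 points and the difference between the aged groups 22.4 points. It was -29.0 points with age when the library index was a term (unadjusted p = 0.0535, adjusted p = 0.864). The neighbouring Nr3c1 clusters in untranslated exons and introns had group means of at most 1.32%, so the more methylated CpGs of the promoter class were those of the coding exon.

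At the edge of that exon cluster the CpG at position 39486576 (minus strand) had the smallest unadjusted p of the gene. It was 100% in 3 of 5 Young_STD mice, with 93.0% and 57.8% in the others. Aged_STD mice ranged from 0.0% to 100% with a median of 31.4%, and Aged_ENR mice from 0.0% to 73.7% with a median of 20.7%. The difference was -55.7 points ± 17.7 with age (unadjusted p = 0.00801, adjusted p = 0.76) and -60.1 ± 15.8 for Aged_ENR against Young_STD mice (unadjusted p = 0.00229, adjusted p = 0.776). The aged groups differed by -4.38 ± 17.96 points.

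The Nr3c2 cluster is the intronic stretch printed above, with 5 CpGs from 33642 to 33838 bases downstream of the gene start. Young_STD mice had 41.0%, 23.3%, 27.01%, 33.1% and 32.9%. The 4 Aged_STD mice with a value had 17.6%, 5.72%, 13.6% and 7.37%, and the 5 Aged_ENR mice had 13.5%, 0.0%, 5.88%, 20.96% and 8.23%. No aged mouse with a value reached the lowest young mouse. The difference was -20.4 points ± 5.9 with age (unadjusted p = 0.00605, adjusted p = 0.534) and -21.7 ± 5.43 for Aged_ENR against Young_STD mice (unadjusted p = 0.00199, adjusted p = 0.556). The aged groups differed by -1.37 ± 4.34 points (unadjusted p = 0.758, adjusted p = 0.973). The age difference was -18.1 points in series 27 and -25.6 in series 37, where 1 Aged_STD mouse stood against 2 young mice. With the library index as a term it was -19.99 points.

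Within this stretch the CpG at 76933238 (minus strand), 33796 bases downstream of the gene start, was listed at 0 in all 5 Aged_ENR mice that measured it. Young_STD mice had 53.7%, 27.9%, 29.2%, 16.2% and 0.0%, and 5 Aged_STD mice ranged from 0.0% to 36.8% with a median of 20%. Aged_ENR mice were 25.4 points ± 8.54 below Young_STD mice, a difference of -25.4 (unadjusted p = 0.0131, adjusted p = 0.776), and the groups overlapped at 0. Against Aged_STD mice the difference was -18.2 points ± 7.56 (unadjusted p = 0.0357, adjusted p = 0.769), and this was the 1 CpG of the 9 genes counted above as lower between the aged groups. A second intronic CpG of Nr3c2, at 76975219 (minus strand), pointed the other way between the aged groups. The 5 Aged_STD mice had 0.0%, 0.0%, 18.8%, 4.17% and 6.06%, and 6 Aged_ENR mice ranged from 0.0% to 100% with a median of 68.9%, a difference of 53.1 points ± 22.3 (unadjusted p = 0.0357, adjusted p = 0.769).

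The Crhr1 cluster, 6 CpGs at -1132 to -946 bases from the start of the gene for the type 1 Crh receptor (chromosome 11, 104132855 to 104175523, plus strand), was of low methylation. Young_STD mice had 2.98%, 5.62%, 5.36%, 18.8% and 13.7%. Aged_STD mice ranged from 0.0% to 8.11% with a median of 2.33%, and Aged_ENR mice from -2.51% to 7.17% with a median of 0.0%. The highest 2 values were young mice of library series 37, and the other 3 young mice lay within the aged range. The difference was -6.32 points ± 2.57 with age (unadjusted p = 0.0286, adjusted p = 0.673) and -7.67 ± 2.71 for Aged_ENR against Young_STD mice (unadjusted p = 0.0139, adjusted p = 0.738). Without Young_STD replicate 4 the age difference was -3.94 points. It was -5.47 points with the library index as a term (unadjusted p = 0.0872, adjusted p = 0.887). Within series 27 it was -3.7 and within series 37 -10.6 points.

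The first CpG of the printed Crhr1 stretch, at 104131723 (plus strand), had the smallest unadjusted p of all CpGs of the 9 genes. Young_STD mice had 17.9%, 25.3%, 17.9%, 12.8% and 23.9%. In Aged_ENR mice it was 0.0% in 6 of 7 and 9.68% in the other. Aged_STD mice ranged from 0.0% to 43.8% with a median of 9.09% and overlapped both other groups. Aged_ENR mice differed from Young_STD mice by -18.2 points ± 3.18 (unadjusted p = 8.03e-05, adjusted p = 0.63). This was the 1 CpG of 72 measured in all mice of that comparison whose groups did not overlap, against 0.275% of 115044 such CpGs in the table. In the other comparisons 0 of 60 (background 0.356%) and 0 of 56 (background 0.0136%) did not overlap. Aged_ENR and Aged_STD mice differed by -11.8 ± 5.75 points at this CpG (unadjusted p = 0.0589, adjusted p = 0.769).

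Inside Crhr1, the intronic CpG at 104151204 (plus strand) was listed at 0 in all 6 Aged_STD mice that measured it. Young_STD mice had 47.6%, 16.2%, 28.1%, 0.0% and 14.0%, and 6 Aged_ENR mice ranged from 0.0% to 37.3% with a median of 10.8%. The difference was -21.2 points ± 6.86 with age (unadjusted p = 0.00987, adjusted p = 0.76) and 14.0 ± 6.21 for Aged_ENR against Aged_STD mice (unadjusted p = 0.0431, adjusted p = 0.769). Each group included mice at 0. The body of Crhr1 as a whole averaged 32.2% ± 3.12 in Young_STD, 29.2% ± 5.25 in Aged_STD and 29.9% ± 4.74 in Aged_ENR mice (n = 5, 7 and 7). Its differences were -3.06 ± 3.26, 0.763 ± 3.12 and -2.3 ± 3.04 points for age, enrichment and Aged_ENR against Young_STD mice (unadjusted p = 0.365, 0.81 and 0.463), all within the spread between mice. Leaving out 1 mouse at a time gave -4.2 to -2.03, -0.45 to 2.09 and -3.51 to -0.975 points. With the library index as a term the age difference changed sign, as listed in the last section.

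The body of Fkbp5, on chromosome 17 (28399094 to 28517527, minus strand), varied widely between aged mice. The 4 Young_STD mice with a value had 71.1%, 67.2%, 88.0% and 82.2%. The 5 Aged_STD mice had 54.0%, 82.1%, 48.0%, 83.1% and 65.2%, and the 7 Aged_ENR mice ranged from 48.6% to 98.1% with a median of 83.1%. The difference was -10.6 points ± 8.2 with age, 9.02 ± 9.3 between the aged groups and -1.62 ± 9.0 for Aged_ENR against Young_STD mice (unadjusted p = 0.224, 0.35 and 0.86). Leaving out 1 mouse at a time moved the age difference between -14.8 and -6.03 points and the difference between the aged groups between 4.41 and 13.5 points. With the replicate number as a block they were -2.43 and 14.6 points, and with the library index as a term -6.52 and 8.47. Its intronic CpG at 28482438 (plus strand) had 83.6%, 74.3%, 79.2%, 94.7% and 86.0% in Young_STD mice. In 6 Aged_STD mice it ranged from 4.0% to 93.3% with a median of 48.1%, and in 7 Aged_ENR mice from 53.3% to 100% with a median of 66.7%. The age difference there was -34.8 points ± 14.1 (unadjusted p = 0.0297, adjusted p = 0.76), with 1 Aged_STD mouse inside the young range. The promoter class of Fkbp5 was close between groups at 6.29% ± 1.16, 6.13% ± 1.23 and 5.92% ± 1.09 (n = 5, 7 and 7).

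At the oxytocin receptor gene Oxtr (chromosome 6, 112473683 to 112489943, minus strand), the promoter averaged 2.69% ± 3.99, 2.42% ± 2.43 and 4.06% ± 5.72 in Young_STD, Aged_STD and Aged_ENR mice (n = 5, 7 and 7). Its body had values in only 3 mice of each group. They were 58.4%, 100% and 97.4% in Young_STD, 19.1%, 97.4% and 80% in Aged_STD, and 69.9%, 66.8% and 40% in Aged_ENR mice. The groups overlapped, and the differences of -19.8 ± 21.4, -6.62 ± 20.3 and -26.4 ± 13.2 points had unadjusted p values of 0.388, 0.754 and 0.0882. All 3 Aged_ENR values came from library series 37, as did 2 of the 3 in each other group. Within series 37 the differences were -10.0, -29.8 and -39.8 points (2 against 2, 3 against 2 and 3 against 2 mice), and with the library series as a term they were -19.8, -29.8 and -39.8 (unadjusted p = 0.0556, 0.0436 and 0.00784, adjusted p = 0.545, 0.948 and 0.467). They were -4.29, -23.6 and -29.6 points with the library index as a term. Leaving out 1 mouse at a time gave -35.7 to 3.43, -29.8 to 9.34 and -39.8 to -16.9 points, each moved by over 1.5 times. The downstream CpG of Avp at 130579312 (minus strand) had values of 23.1%, 8.0%, 0.0% and 94.4% in the 4 Young_STD mice that measured it, and from 0.0% to 42.1% in 6 Aged_STD mice, with a median of 16.7%. The 5 Aged_ENR mice had 100%, 100%, 71.4%, 81.2% and 0.0%, and the difference between the aged groups was 50.9 points ± 21.4 (unadjusted p = 0.036, adjusted p = 0.769). It was 86.0 points in library series 27 (2 against 3 mice) and 25.7 in series 37 (3 against 3 mice), and the young mice spanned nearly the whole scale.

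The remaining 9 regions, which were the promoters of Nr3c2, Fkbp5, Crh, Crhr1, Crhr2, Oxt and Oxtr and the bodies of Crh and Avp, differed by -0.348 to 1.58 points with age, by -0.372 to 1.64 points between the aged groups and by -0.579 to 2.02 points between Aged_ENR and Young_STD mice. Their smallest unadjusted p values were 0.5, 0.259 and 0.215. The standard errors ran from 0.41 to 7.29 points, the largest at the 3 CpGs of the Crh promoter, so a difference of a few points was not detectable there.

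Of 25 further genes of the pathway, from Crh binding protein and urocortins to steroid synthesis enzymes, chaperones and glucocorticoid target genes, 15 promoters and 10 bodies had values, none with an adjusted p below 0.05 by limma, the counts at an unadjusted p under 0.05 being as follows. With age, 1 promoter was lower and 2 were higher at an unadjusted p under 0.05, with a median of 0.25 points over the 15, against -0.08 over 18829 promoters of all genes, of which 4.68% were lower and 1.71% higher. The lower promoter was Hsd11b2 (21 CpGs), at 2.09% in Young_STD and 0.295% in Aged_STD mice (limma, adjusted p = 0.518). The higher ones were Hsp90aa1 (38 CpGs), at 0.26% and 1.51% (adjusted p = 0.545), and Crhbp (3 CpGs), at 54.8% and 65.1% (adjusted p = 0.485). Among the bodies 3 were lower and 1 higher, with a median of -3.48 points, against -3.03 over 12506 bodies, of which 11.1% were lower and 1.24% higher. Lower was the body of Zbtb16 (87 CpGs), a transcription factor gene induced by glucocorticoids, at 29.0% in Young_STD and 20.2% in Aged_STD mice (adjusted p = 0.513). The other lower bodies were Sgk1 and Cyp11a1. Sgk1 (38 CpGs), a kinase gene induced by corticosteroids, was at 52.1% in Young_STD and 37.4% in Aged_STD mice (adjusted p = 0.499). Cyp11a1 (only 5 CpGs), which encodes the enzyme of the first step of steroid synthesis, was at 36.4% and 6.48% (adjusted p = 0.274). The higher body was Star (only 4 CpGs), whose protein carries cholesterol into mitochondria for steroid synthesis, at 54.3% and 74.1% (adjusted p = 0.545). Cyp11a1 was also the 1 pathway body with an unadjusted p under 0.05 between the aged groups, at 29.5% in Aged_ENR mice (adjusted p = 0.95), where 1.14% of all bodies were lower and 3.46% higher. No promoter of the list passed that threshold between the aged groups, against 1.83% lower and 2.64% higher of all promoters. Between Aged_ENR and Young_STD mice 1 promoter (Tsc22d3) was lower and 1 (Hsp90aa1) higher, against 3.78% and 1.91% of all promoters. There 1 body (Zbtb16) was lower, against 7.45% of all bodies.

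Marker genes of the cell types that the dissection could hold were set beside these values. The 3 oligodendrocyte gene bodies with values were all lower in Aged_STD than in Young_STD mice, with a median of -9.04 points, as were the 3 astrocyte bodies (-5.79), the 1 microglial body with a value of 3 genes (-3.79), the 2 endothelial bodies (-5.87) and the 4 granule neuron bodies (-3.18). Promoters of these lists with values numbered 2 of 4 genes for oligodendrocytes (10.04% to 55.4% in young mice), 2 of 3 for astrocytes (16.2% to 36.3%) and 4 of 5 for granule neurons (0.333% to 4.64%), with age medians of -7.59, -7.04 and 0.09 points, and the 1 endothelial promoter differed by -0.05. At an unadjusted p under 0.05 the bodies of Prox1, a granule neuron gene (-10.1 points, unadjusted p = 0.0265, adjusted p = 0.521), Mbp, a myelin gene (-9.04 points, unadjusted p = 0.0439, adjusted p = 0.561), and Pecam1, an endothelial gene (-10.8 points, unadjusted p = 0.0181, adjusted p = 0.499), were lower with age by limma. Between the aged groups all bodies of these lists with values were higher in Aged_ENR than in Aged_STD mice, with medians of 6.34 (oligodendrocytes), 6.20 (astrocytes), 0.893 (microglia), 5.47 (endothelium) and 3.62 points (granule neurons), and over all bodies the median was 1.08 points. There the body of Neurod1, a neuronal transcription factor gene, differed by 4.52 points (unadjusted p = 0.00311) and the promoter of Rbfox3, the gene of the neuronal protein NeuN, by -1.49 points (unadjusted p = 0.0144), both with an adjusted p of 0.95. Between Aged_ENR and Young_STD mice the body medians were -7.48, -2.12, -2.9, -0.399 and -1.46 points in the same order, and at an unadjusted p under 0.05 the bodies of Mbp (-7.48 points, unadjusted p = 0.0368, adjusted p = 0.692) and Pecam1 (-7.08 points, unadjusted p = 0.0473, adjusted p = 0.705) were lower and that of Neurod1 (3.98 points, unadjusted p = 0.0217, adjusted p = 0.656) higher by limma. No marker region was called at an adjusted p under 0.05 in the 3 comparisons. The part of these shifts in the lower values of Nr3c2 and Nr3c1 was not tested.

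The precision of single CpGs was limited. The deposited percents carry no read numbers, so the depth behind each value is unknown and no interval could be given. At 35 CpGs of the 9 genes both strands were measured, giving 414 paired values. Of these, 322 were at exactly 0 on both strands. The other 92 pairs were above 0 on at least 1 strand, none was exactly equal, and their difference between strands had an SD of 24.7 points. Where the remaining mice averaged between 20% and 80%, 254 of 569 values (44.6%) were exactly 0 or 100.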

How the data were processed

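Genomic DNA of micro-dissected dentate gyrus was made into RRBS libraries by the authors. The submitters' processing notes name Trim Galore 0.4.0, cutadapt 1.8.1, Bismark 0.16.1 and methylKit 1.5.2 for trimming, alignment to mm10 and extraction of calls by the authors. The methods of the study name later versions of Trim Galore and Bismark. The deposited values are percent methylation per cytosine and mouse, kept by the authors where at least 10 reads and less than the 99.9th percentile of coverage were present, without read numbers, so the study's chi-squared test on reads could not be run. The labels describe 24 samples, and the 19 mice of 3 groups in the table were used, the young enriched mice being not analysed here. The number of value columns matching no sample was 0. Of 762182 cytosines, 20 were not CpGs in GRCm38 and were left out.

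Groups and library series came from the labels. Differences were tested per CpG, per gene region, for promoter minus body within a gene and per cluster, with limma 3.58.1 (R 4.3.3) on the percent scale, a variance trended on mean methylation, both groups of a comparison in the fit, two-sided p-values and Benjamini-Hochberg adjustment over all features. Features that did not vary between the mice of a comparison were dropped, and regions needed at least 3 CpGs, also 3 in a mouse, and 3 mice in each group. The scripts were tested on simulated data. Mice are single animals, and p-values measure the spread between them. The genes, lists and tests were chosen with earlier results of these data known. CpGs were named where they had the smallest unadjusted p of a gene in a comparison (under 0.05, in at least 4 Young_STD, 5 Aged_STD and 5 Aged_ENR mice), or where the groups did not overlap and differed by over 10 points. Alternatives were the variance prior, library series, library index or replicate number as terms, all groups in 1 fit, a logit scale, other CpG minimums, plain region means, only CpGs measured in all mice, and leaving out each mouse. Clusters were added after the data were seen. Replicate numbers were taken from the labels and nothing states that they pair mice. Tables, sequences and figures were made with Python 3.11.15, pandas 2.3.3, numpy 2.4.6, pysam 0.24.0 and matplotlib 3.10.9.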

Additional observations from a re-analysis of the deposited data

Results flagged for a closer look

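Among 65 groups of 4 to 10 values tested, 5 held a mouse whose gap to its nearest neighbour was large for the range of the group by Dixon's criterion, and for values without ties chance alone gives about 1 in 20. Percents often tie at 0, and the criterion then marks any other single value, as for the Crhr1 CpG here. Young_STD replicate 1 had 0.731% in the Crhr1 promoter, below the next mouse at 1.41%. Aged_STD replicate 5 had 10.5% in the Crhr2 promoter, where the next mouse had 1.92%. Young_STD replicate 3 had 57.8% at the Nr3c1 CpG 39486576, where the next mouse had 93.0%. Aged_ENR replicate 5 had 9.68% at the Crhr1 CpG 104131723, where the other 6 mice had 0.0%. Aged_ENR replicate 7 had 0.0% at the Avp CpG 130579312, where the next mouse had 71.4%.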

How the results depend on the processing

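Counts of called CpGs, regions, clusters and promoter-minus-body differences of the 9 genes were 0 under all alternatives run. Signs were followed for 63 differences only. These were the regions, the promoter minus body of Nr3c2, the 3 described clusters and the named CpGs in the comparison that named them. Sign changes of other clusters and CpGs are not listed. Among 1198 recomputed values of these differences 0 had an adjusted p under 0.05 and 75 changed sign, all of differences that were not called. The age differences of the Nr3c2 body, the Nr3c1 promoter class and the 3 clusters kept their sign throughout. They were described for their small unadjusted p in the same data, so the kept sign is not separate support. The Nr3c1 promoter class with plain means no longer passed an unadjusted p under 0.05. Neither did the Nr3c1 and Crhr1 clusters with the library index as a term. Without the variance trend limma called 120, 26 and 92 CpGs of the whole table, and with all groups in 1 fit 34, 0 and 39, of which 0 belonged to these genes. All values here are in points. With the replicate number as a block, the changed signs were Avp body -0.213, Crh promoter -2.34 and Crhr2 promoter 0.667 (age) and Crh promoter -4.99 and Crhr2 promoter -2.05 (Aged_ENR against Young_STD). With the library index as a term, the changed signs were Crh promoter -0.611, Crhr1 body 0.025, Crhr2 promoter 1.45, Fkbp5 promoter 0.472 and Oxt promoter 0.899 (age), Crhr1 body -0.96 and Crhr2 promoter -0.26 (aged groups) and Crh promoter -7.91, Crhr1 promoter 0.113 and Fkbp5 body 0.088 (Aged_ENR against Young_STD). Over only CpGs measured in all 19 mice, the changed signs were Crhr1 body 3.46 (age) and Crhr1 body -3.81 (aged groups). With plain means, the changed signs were Crhr2 promoter 0.254 and Nr3c2 promoter -0.09 (age), Fkbp5 promoter 0.721 (aged groups) and Crhr1 promoter 0.005 (Aged_ENR against Young_STD). With at least 5 CpGs, the changed signs were Crhr2 promoter -0.69 (Aged_ENR against Young_STD). Leaving out 1 mouse at a time changed the sign of these differences, given with their ranges. For age Crh body -0.565 to 0.253, Crh promoter -0.92 to 6.02, Crhr2 promoter -1.78 to 0.389, Fkbp5 promoter -0.583 to 0.226, Nr3c2 promoter -0.174 to 0.253, Oxt promoter -0.753 to 0.558, Oxtr body -35.7 to 3.43 and Oxtr promoter -1.03 to 1.22. For aged groups Crh promoter -4.36 to 2.94, Crhr1 body -0.45 to 2.09, Crhr2 promoter -0.352 to 2.05, Fkbp5 promoter -0.469 to 0.065, Nr3c2 body -0.008 to 5.05, Nr3c2 promoter minus body -4.97 to 0.451, Oxtr body -29.8 to 9.34, Oxtr promoter -0.132 to 2.72 and Nr3c2 cluster -4.19 to 1.05. For Aged_ENR against Young_STD Crh promoter -2.78 to 3.89, Crhr1 promoter -0.234 to 0.102, Crhr2 promoter -0.7 to 1.003, Fkbp5 body -5.38 to 2.86, Fkbp5 promoter -0.792 to 0.017 and Oxtr promoter -0.393 to 2.86. The cause of these changes was not tested. Replicate numbers were not taken as pairs, since same-numbered mice did not all deviate together (correlations from -0.255 to 0.158 over 19177 regions), and with the number as a block the Nr3c2 body differed by -15.2 points with age and the Nr3c1 promoter class by -5.22. The depth behind single CpGs is unknown, and most of the 476 were not measured in all 19 mice.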
